A study of Homo sapiens with 6 samples.

Results

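The cancer-testis antigen families are groups of genes, most of them in arrays of duplicated copies on the X chromosome, that are normally transcribed in male germ cells and are found again in many tumours. Members were the protein-coding genes whose name begins with MAGEA, MAGEB, MAGEC, PAGE, XAGE, GAGE, SSX, SPANX, CT45A or CTAG and goes on with digits or capitals only, SSX2IP being left out. That rule took 86 of the 58735 named genes, and it used names and biotypes, not expression. The 86 genes were 12 MAGEA, 11 MAGEB, 3 MAGEC, 6 PAGE, 5 XAGE, 13 GAGE, 8 SSX, 10 SPANX, 9 CT45A and 3 CTAG genes, and 6 CTAGE genes that match the CTAG prefix. CTAGE genes are relatives of MIA2, a gene of secretory cargo export, and belong to another family than CTAG, so they are described apart. All 80 other members lie on chromosome X, and the 6 CTAGE genes do not. A further 21 matching rows of other biotypes, all annotated as pseudogenes, were not members.

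Poly(A) RNA was sequenced from LS174T, an established human colorectal adenocarcinoma line that the labels call goblet-like, after the mucus-secreting cells of the gut. The groups were 3 libraries of the wild-type line and 3 libraries of the same line labelled FXYD3 knockout. The labels name no treatment, and neither how the knockout was made nor whether it is 1 clone or several. They do not say that the libraries of a group are separate cultures, so p-values measure only how far these libraries scatter, and that scatter may be technical. FXYD3, a regulator of the sodium pump, was not lower where the label says knockout (3.88 ± 1.07 CPM in the wild type and 5.62 ± 0.93 in the labelled knockout, mean ± SD of n = 3). CPM are counts scaled to a common library size by the TMM method. Every direction therefore compares libraries by their labels.

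The MAGE proteins share a MAGE homology domain and bind RING-type ubiquitin ligases, whose activity or targets they change. GAGE, PAGE and XAGE proteins are small, acidic and related to each other, and their function is poorly known. SSX proteins are nuclear and are best known as fusion partners of SS18 in synovial sarcoma, SPANX proteins are found in sperm, and CTAG1A, CTAG1B and CTAG2 encode the tumour antigens NY-ESO-1 and LAGE-1. In somatic cells these genes are generally kept silent, with DNA methylation of their promoters as a main mechanism, and fragments of their products can be presented to T cells when a tumour transcribes them.

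Most members were silent in LS174T, and a few were abundant. Of the 86, 48 had 0 counts in all 6 libraries, 19 had 1 to 9 counts in all, 5 had 10 counts or more without passing the filter on low counts, and 14 passed it and were tested. Named genes held 15417232 to 19453217 counts per library, so that a count of 0 in all 6 libraries allows up to 0.0291 CPM over the 6 (3 counts), and in a single library 0.153 to 0.194 CPM. These limits cover counting error only. Members took 0.0570, 0.0606 and 0.0714% of all counts in the wild type, against 0.0492, 0.0503 and 0.0472% in the labelled knockout. The wild-type shares were all higher. PAGE1 alone held 2678, 2322 and 2819 of 10020, 10669 and 11785 member counts in the wild type. In the labelled knockout it held 213, 258 and 209 of 7589, 9786 and 7827. The lower share therefore does not describe the families as a whole.

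Silence ran through whole families. All 9 CT45A genes had 0 counts, as did 9 of 10 SPANX, 6 of 8 SSX and 3 of 5 XAGE genes, and the rest of those families held 3, 2 and 3 counts in all 6 libraries together. In MAGEB 8 of 11 genes were silent, in MAGEC 2 of 3, in PAGE 2 of 6, in GAGE 6 of 13 and in MAGEA 3 of 12. No CTAG or CTAGE gene was silent. Among the 19 genes with a trace of reads, the totals over 6 libraries were 9 for CTAGE6, 8 for GAGE13 and CTAG1A, 6 for CTAGE9 and PAGE4, and 5 for PAGE2B. MAGEB18, MAGEB6, MAGEA11, MAGEA10 and CTAG1B had 4 each and SPANXN3 had 3. XAGE2, PAGE2 and CTAGE1 had 2 each, and SSX1, GAGE12H, XAGE1B and SSX2B had 1 each.

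**Figure D1:**
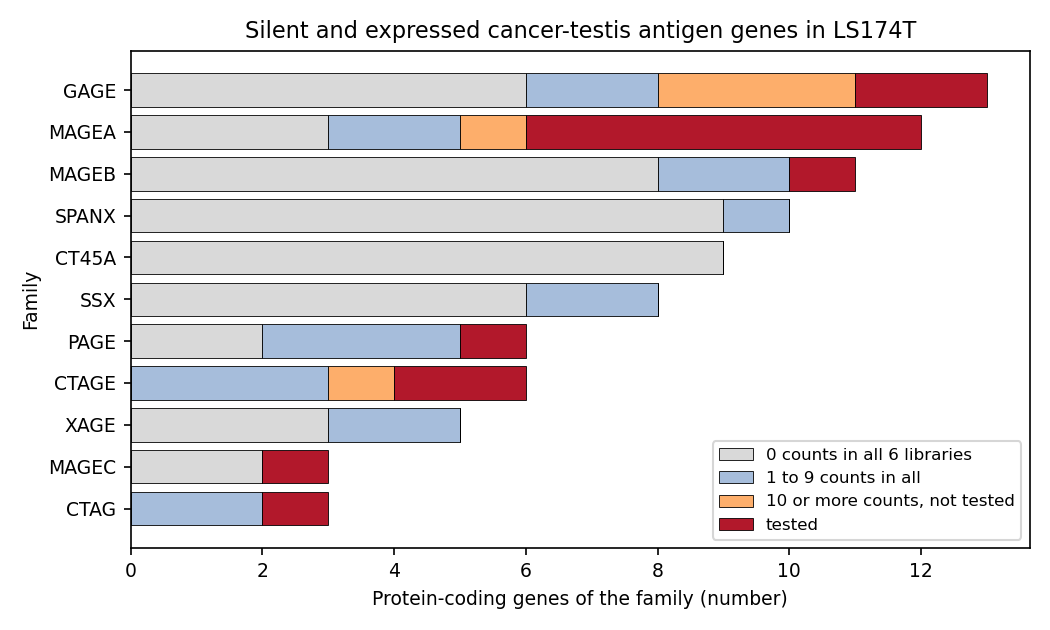
Number of protein-coding genes of each family (bars, horizontal axis) that were silent, had a trace of 1 to 9 counts, were low or were tested, over 6 libraries. MAGEA has 6 tested genes of 12, while the 9 CT45A genes are all silent.

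Many members are near-identical copies, which limits what a count of 1 gene can say. Each member's annotated transcripts were cut into windows of 100 bases and searched in the transcripts of all other genes. Of the 86 members, 25 shared no window, 40 shared at least 50% of their windows and 16 shared all of them. Among the 48 silent members, 23 shared at least 50% and 16 shared none, so silence was also recorded for genes with no matching copy, among them MAGEB1, MAGEB2, MAGEC2 and SSX3. How reads with several matches were counted is not given in the sources used here. PAGE1, MAGEA1 and MAGEC1 shared no window, MAGEA12 shared 3.54%, GAGE1 11.3%, CTAG2 24.5%, MAGEA6 33.0%, MAGEA3 34.9% and GAGE2A 53.4%. MAGEA2 and MAGEA2B shared 89.4 and 82.4%, and GAGE12G 100%. These shares depend on the window length. With windows of 150 bases GAGE2A shared 31.9%, MAGEA3 27.1%, MAGEA6 25.6%, CTAG2 9.77% and GAGE1 9.67%, while GAGE12G still shared 100%.

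**Figure D2:**
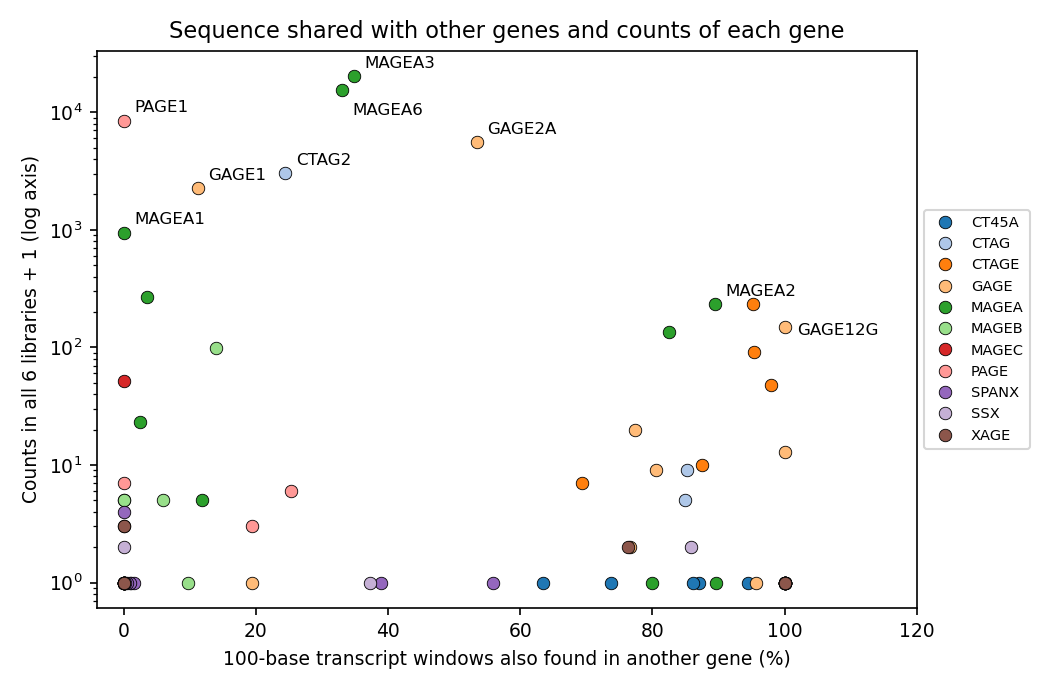
Share of 100-base transcript windows that also occur in another gene (horizontal axis, %) against total counts over 6 libraries plus 1 (vertical axis, log scale), 1 point per gene, coloured by family. PAGE1 and MAGEA1 stand at 0%, MAGEA3 and MAGEA6 near 33 to 35%, and GAGE12G at 100%.

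How little separates the copies is seen in the coding sequences of the pairs that matter most here. MAGEA3 and MAGEA6 are identical at 98.1% of their 942 coding bases, and 18 differ. GAGE2A and GAGE12G are identical at 98.6% of 348 aligned bases, and 5 differ. The stretches below are 90 coding bases of the annotated transcripts (GENCODE 29, GRCh38), chosen because they hold several of the differences, with the differing bases in capitals. The first pair covers coding bases 434 to 523 of each gene. The GAGE2A stretch runs from coding base 25 to 114 and the GAGE12G stretch from 28 to 117.
MAGEA3: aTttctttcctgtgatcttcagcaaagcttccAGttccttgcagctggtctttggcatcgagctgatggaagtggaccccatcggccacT
MAGEA6: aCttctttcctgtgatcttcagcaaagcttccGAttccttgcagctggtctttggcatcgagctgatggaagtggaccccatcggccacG
GAGE2A: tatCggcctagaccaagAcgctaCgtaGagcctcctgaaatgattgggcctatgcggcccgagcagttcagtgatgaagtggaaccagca
GAGE12G: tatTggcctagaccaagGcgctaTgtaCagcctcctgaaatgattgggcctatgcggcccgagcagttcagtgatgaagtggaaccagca
A read that lies wholly inside 1 of these stretches and covers no capital matches both genes of its pair equally well.

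MAGEA3 and MAGEA6 together held 62.3% of all member counts, PAGE1 14.7%, GAGE2A 9.71%, CTAG2 5.25%, GAGE1 3.92% and MAGEA1 1.64%, and these 7 genes reached 97.5%. Per length, PAGE1 was the most abundant in each wild-type library, at 233, 196 and 263 RPKM (CPM per kilobase of the deposited gene length; mean 231). MAGEA3 had a mean of 110 RPKM (113, 101 and 115) and MAGEA6 one of 82.0 (80.8, 78.1 and 87.2). GAGE2A, at 29.1, 139 and 196 RPKM, was below both in wild-type library 1 and above both in the other 2, so its mean of 121 gives it no firm place in that order. CTAG2 followed at 25.4 RPKM and GAGE1 at 8.31. PAGE1 stood at the 99.1st percentile of tested protein-coding genes and MAGEA3 at the 97.6th. MAGEA1, at 1.03 RPKM, stood at the 16.4th. In the labelled knockout PAGE1 was at 19.8 RPKM and MAGEA1 at 9.66 RPKM.

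**Figure D3:**
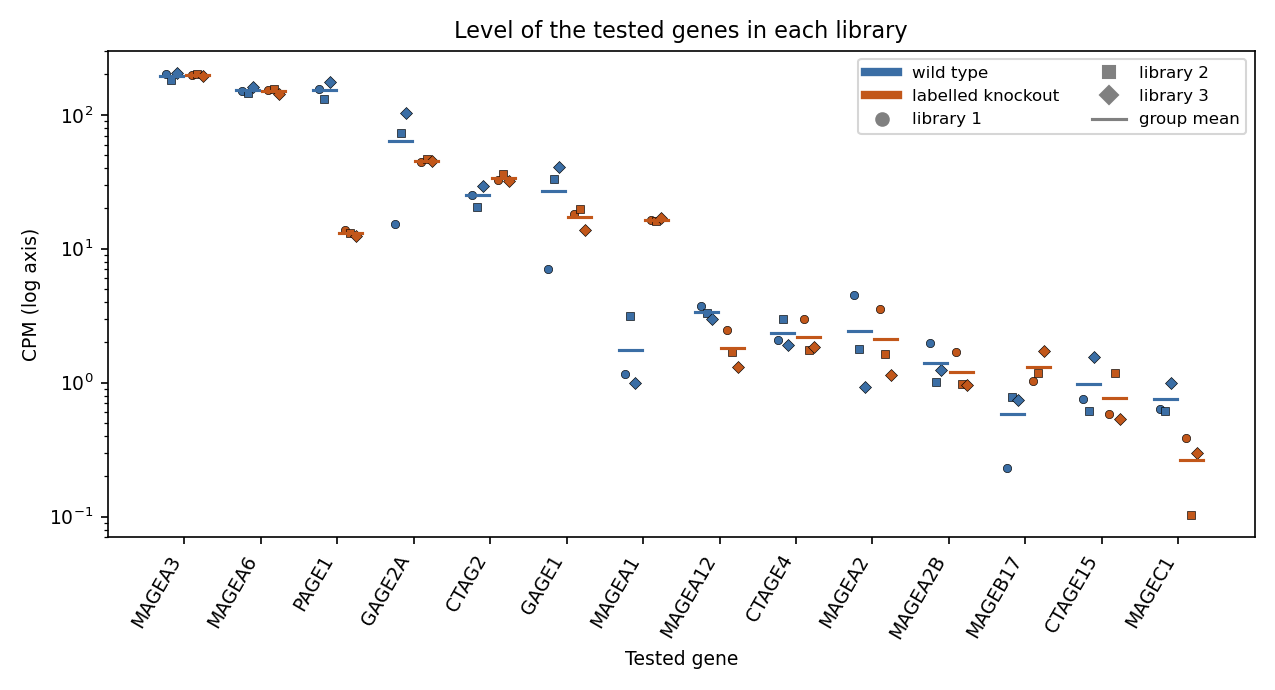
CPM (log axis) of the 14 tested genes in each library, with wild-type libraries in blue, libraries labelled knockout in orange, and horizontal lines at the group means (n = 3). PAGE1 and MAGEA1 separate by group, MAGEA3 and MAGEA6 overlap, and wild-type library 1 lies far below the other wild-type libraries for GAGE2A and GAGE1.

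Between the groups, 2 of the 14 tested members were higher in the labelled knockout (MAGEA1 and CTAG2), 3 were lower (PAGE1, MAGEA12 and MAGEC1) and 9 were not called. The test was edgeR's quasi-likelihood test with Benjamini-Hochberg adjustment over all 15351 genes tested, at an adjusted p of 0.05. Of all tested genes 24.3% were called, 12.0% as higher and 12.4% as lower, so 5 of 14 members called is to be read against a large background. Of tested protein-coding genes 27.0% were called (12.5% higher, 14.5% lower), and of the 486 tested genes on chromosome X 23.7% (9.47% higher, 14.2% lower). The median log2 fold change of the tested members was -0.23, beside 0.00 over all genes. In 6 of the 14 members the groups did not overlap, beside 37.2% of all tested genes. MAGEC1, called lower and without overlap, passed the filter only through the wild type, where it is higher. In bulk RNA, fewer cells that transcribe a gene and less RNA per cell cannot be told apart.

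PAGE1 showed the largest difference of any tested member. PAGE1 (ENSG00000068985; GRCh38 chromosome X, 49687450 to 49695993, minus strand) received 2678, 2322 and 2819 counts in the wild type, against 213, 258 and 209 in the labelled knockout. Every labelled knockout library was far below every wild-type library, and both groups were tight. The level went from 153 ± 22.3 to 13.1 ± 0.66 CPM (SD, n = 3 each), an 11.7-fold lower value. On the log2 scale the difference was -3.55 (SE 0.10, 95% interval -3.75 to -3.34; edgeR adjusted p = 5.35e-16). PAGE1 ranked 101st by log2 fold change among 1896 genes called lower, and 1.21% of all tested genes were called with a log2 change of at least 3 in size. The other PAGE genes did not share this level: PAGE4, 133266 bases further along, had 1, 2 and 3 counts in the wild type and 0 in each labelled knockout library, and PAGE3 and PAGE5 were silent.

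PAGE1 lies on the opposite strand to GAGE1 and GAGE2A, 78913 and 90622 bases from them, and the overlapping GAGE1 and GAGE2A are its nearest protein-coding genes on that side. The coding sequences of PAGE1 and GAGE2A are identical at 75.9% of 348 aligned bases. Their promoters are shown because the genes lie near each other and resemble each other in sequence: the windows from 250 bases before to 50 bases after the start are identical at 84.7% of 262 aligned bases. The sequences are from RefSeq (GRCh38.p14), with the E-box CACGTG, which reads the same on both strands, in capitals.
PAGE1, chrX:49695935-49696234, minus strand: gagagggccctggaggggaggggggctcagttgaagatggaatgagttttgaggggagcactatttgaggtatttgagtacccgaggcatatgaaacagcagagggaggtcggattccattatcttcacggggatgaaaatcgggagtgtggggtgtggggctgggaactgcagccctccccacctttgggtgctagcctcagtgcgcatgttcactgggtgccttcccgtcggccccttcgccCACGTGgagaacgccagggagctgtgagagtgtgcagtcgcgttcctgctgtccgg
GAGE2A, chrX:49589246-49589545, plus strand: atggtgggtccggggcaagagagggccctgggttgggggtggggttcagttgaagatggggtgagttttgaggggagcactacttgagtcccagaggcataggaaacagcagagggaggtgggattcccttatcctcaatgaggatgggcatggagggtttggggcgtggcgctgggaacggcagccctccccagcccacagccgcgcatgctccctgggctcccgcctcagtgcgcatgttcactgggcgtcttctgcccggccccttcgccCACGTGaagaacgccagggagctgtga
The word CACGTG occurred in 7.26% of 35116 promoters and in those of 22 of the 71 members with an entry, most of them near-identical GAGE and CTAGE copies. The PAGE1 and GAGE2A windows each hold 13 CpG dinucleotides. The median was 12 over the members' promoters and 14 over all.

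MAGEA1 moved the other way. MAGEA1 (ENSG00000198681; chromosome X, 153179285 to 153183880, plus strand), the founding member of the MAGE family, had 20, 56 and 16 counts in the wild type, against 255, 313 and 286 in the labelled knockout. All 3 labelled knockout libraries were higher, and among the wild-type libraries number 2 was 2.72-fold above the next. The level rose 9.35-fold, from 1.77 ± 1.20 to 16.5 ± 0.51 CPM (SD, n = 3 each; log2 fold change 3.20, SE 0.27, 95% interval 2.61 to 3.79, edgeR adjusted p = 2.1e-06). MAGEA1 ranked 54th among 1839 genes called higher. The nearest protein-coding genes on either side, PNMA6A and PNMA6F, had 1 and 0 counts in all 6 libraries.

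The most abundant members of the same family stayed within the spread of the libraries. MAGEA3 (chromosome X, 152698752 to 152702347, plus strand), which binds the ligase TRIM28, had 3481, 3215 and 3312 counts in the wild type and 3084, 3976 and 3244 in the labelled knockout. MAGEA6 (152766136 to 152769747, minus strand) had 2597, 2591 and 2617, and 2357, 3033 and 2414. The groups overlapped for both. The log2 fold changes were 0.02 for MAGEA3 (95% interval -0.10 to 0.14, edgeR adjusted p = 0.843) and -0.02 for MAGEA6 (-0.14 to 0.10, adjusted p = 0.836). Counts of MAGEA3 were 1.24 to 1.34 times those of MAGEA6 in every library. How reads that fit both copies were divided bears on that ratio and was not tested.

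The promoter windows of MAGEA3 and MAGEA6 are identical over all 300 bases. The sequence is shown once, with CpG dinucleotides in capitals, since the copies are the most abundant members and were at the same level in both groups. It holds 19 CpG, more than 57.1% of all promoters in the RefSeq table.
MAGEA3, chrX:152698544-152698843, plus strand: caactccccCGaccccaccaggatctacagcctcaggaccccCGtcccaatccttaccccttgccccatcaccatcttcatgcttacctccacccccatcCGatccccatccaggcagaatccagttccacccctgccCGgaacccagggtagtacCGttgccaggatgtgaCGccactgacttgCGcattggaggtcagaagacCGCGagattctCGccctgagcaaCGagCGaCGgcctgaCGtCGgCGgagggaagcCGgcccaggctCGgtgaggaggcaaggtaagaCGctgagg
The MAGEA6 window lies at chrX:152769640-152769939 on the minus strand. DNA methylation was not measured, so the CpG count describes the sequence only.

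MAGEA12 lies between MAGEA3 and MAGEA6 and was lower. It had 65, 59 and 48 counts in the wild type and 38, 33 and 22 in the labelled knockout, with no overlap (3.35 ± 0.39 and 1.82 ± 0.58 CPM; log2 fold change -0.89, SE 0.26, 95% interval -1.43 to -0.35, edgeR adjusted p = 0.0137). It missed the threshold when wild-type library 1 (adjusted p = 0.0725), labelled knockout library 2 (0.0564) or labelled knockout library 3 (0.0846) was left out. MAGEA2 had 78, 32 and 15 counts against 55, 32 and 19, and its copy MAGEA2B, whose coding sequence is identical, had 34, 18 and 20 against 26, 19 and 16. Neither was called (log2 fold changes -0.22 and -0.24, adjusted p = 0.859 and 0.691). Their sum in counts (112, 50 and 35 against 81, 51 and 35) varied more within each group than between the groups (log2 fold change -0.23, adjusted p = 0.807). In both groups the sum was highest in library 1 and lowest in library 3. With the replicate number as a block, MAGEA2 had a log2 fold change of -0.13 (edgeR adjusted p = 0.803). Its SE was 0.28 with the block and 0.67 without.

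MAGEA4, a widely studied tumour antigen, stayed under the filter, with 5, 9 and 7 counts in the wild type, against 0, 1 and 0 in the labelled knockout. The 21 wild-type counts against 1 give a depth-adjusted ratio of 21.3, with a counting interval of 3.42 to 879. Without the filter, where 12.5% of all genes were called, the log2 fold change was -4.0 (SE 1.22, edgeR adjusted p = 0.0116). MAGEA8, MAGEA9 and MAGEA9B were silent. Within this 1 family, MAGEA1 was thus higher and MAGEA12 lower in the labelled knockout, while MAGEA3 and MAGEA6 set the sum: the MAGEA total was 358 ± 19.9 CPM in the wild type and 371 ± 11.5 in the labelled knockout (log2 fold change 0.05, 95% interval -0.07 to 0.17, adjusted p = 0.576).

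In the GAGE array, 1 wild-type library stood apart. GAGE2A (chromosome X, 49589529 to 49596827, plus strand) received 266, 1306 and 1669 counts in the wild type, against 684, 917 and 756 in the labelled knockout. GAGE1 (49589496 to 49608536, plus strand), which overlaps GAGE2A on the same strand over 75 exonic bases, had 122, 586 and 656, and 279, 388 and 230. Wild-type library 1 was the lowest of all 6 for both genes, 4.77-fold below the next wild-type library for GAGE2A and 4.67-fold for GAGE1, while libraries 2 and 3 were above the labelled knockout. Over the 6 libraries, neither gene was called (GAGE2A 64.1 ± 44.9 and 45.4 ± 1.39 CPM, log2 fold change -0.49, SE 0.71, 95% interval -2.42 to 1.43, edgeR adjusted p = 0.695; GAGE1 log2 fold change -0.64, SE 0.68, adjusted p = 0.593). Without wild-type library 1 both were called lower, at -0.96 (edgeR adjusted p = 4.0e-06) and -1.10 (adjusted p = 1.7e-06). That fit called 17.1% of all genes and assumes that the remaining wild-type libraries vary like the others. Leaving out library 1, the only wild-type library below the labelled knockout, sets the direction in advance, so these p-values are no separate evidence. Without wild-type library 2 the log2 fold changes of GAGE2A and GAGE1 were -0.38 and -0.46 (edgeR adjusted p = 0.813 and 0.763). Without wild-type library 3 they were 0.02 and -0.22 (adjusted p = 0.988 and 0.892).

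The same library alone held GAGE12G. This copy had 148, 0 and 0 counts in the wild type and 0 in each labelled knockout library, and it made up 27.5% of the GAGE counts of wild-type library 1. All of its windows occur in GAGE12F as well, whose coding sequence is identical and which had 0 counts. Adding the counts of all GAGE copies did not close the gap. The family had 539, 1895 and 2350 counts in the wild type and 967, 1309 and 987 in the labelled knockout. Library 1 was still 3.42-fold below the next wild-type library. How reads matching several copies were counted is not given, so the sum cannot show whether such reads were lost. The log2 fold change of the sum was -0.59 (SE 0.60, edgeR adjusted p = 0.573), and -1.01 without that library (adjusted p = 6.05e-06). Of 17 alternatives for the sum, only that fit gave a call. Of 11060 genes whose wild-type mean reached 5 CPM, GAGE2A and GAGE1 were the only genes more than 2-fold below both other wild-type libraries in library 1, and 0 genes were more than 2-fold above them. By the same limits, 4 genes were below and 2 above in wild-type library 2, and 1 below and 0 above in library 3. Labelled knockout libraries 1, 2 and 3 had 2, 1 and 0 genes below their group mates and 0 above, so such genes were not particular to library 1. These limits were set after the library was seen to stand apart, and they leave out lower genes such as GAGE12G and MAGEA2 (4.51, 1.80 and 0.93 CPM in the wild type). The ratio of GAGE2A to GAGE1 counts was 2.18 in library 1 and 2.23 to 3.29 in the other libraries.

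**Figure D4:**
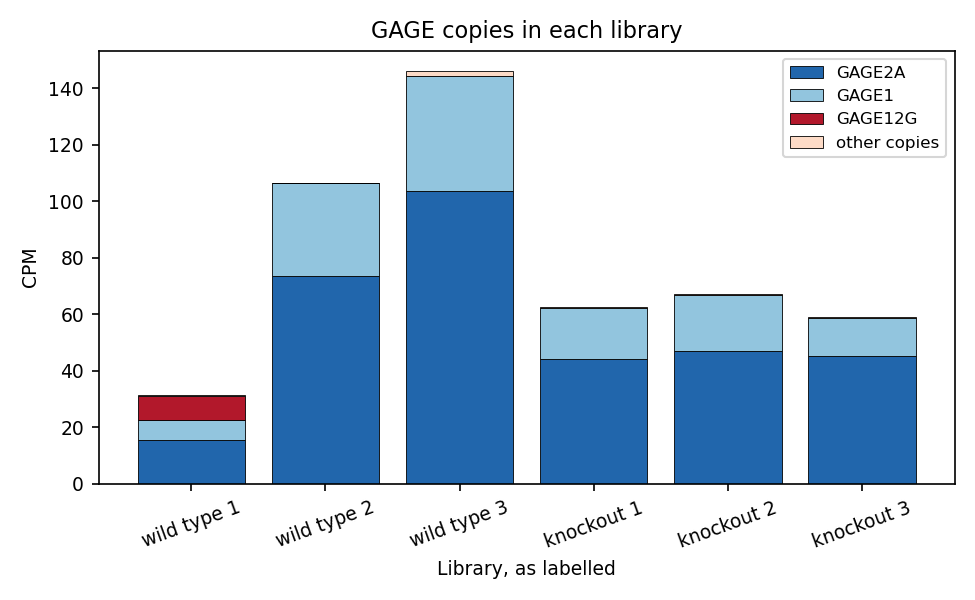
CPM of the GAGE copies (stacked bars) in each of the 6 libraries, with knockout as labelled. Wild-type library 1 has the lowest total and is the only library with GAGE12G, and wild-type libraries 2 and 3 have the highest totals.

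Other GAGE copies were close to 0. GAGE12J had 1, 0 and 17 counts against 1, 0 and 0, so 17 of its 19 counts came from wild-type library 3, and GAGE2E had 1, 2 and 1 against 3, 4 and 1. Without the filter GAGE12J reached a log2 fold change of -3.80 (edgeR adjusted p = 0.0271), which rests on that library. GAGE10 and the copies GAGE12B to GAGE12F were silent, and GAGE10 shared 19.4% of its windows with other genes.

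CTAG2 was modestly higher. This gene, which encodes LAGE-1 (chromosome X, 154651972 to 154653579, minus strand), received 439, 367 and 476 counts in the wild type, against 502, 707 and 538 in the labelled knockout. In CPM all labelled knockout libraries were above all wild-type libraries (25.2 ± 4.47 and 33.6 ± 2.27, a ratio of 1.33; log2 fold change 0.42, SE 0.10, 95% interval 0.20 to 0.63, edgeR adjusted p = 0.00454). Its relatives CTAG1A and CTAG1B, which encode NY-ESO-1 and share 85.3 and 84.9% of their windows, had 12 counts together. CTAG2 and CTAG1A coding sequences are identical at 89.5% of 630 bases.

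In the remaining MAGE families 1 gene each was tested. MAGEC1 (chromosome X, 141903894 to 141909388, plus strand) received 11, 11 and 16 counts in the wild type and 6, 2 and 5 in the labelled knockout, and the groups did not overlap (log2 fold change -1.53, SE 0.55, 95% interval -2.67 to -0.39, edgeR adjusted p = 0.044). That call rests on few reads: it was lost in 9 of 17 alternative settings, among them the fit with the replicate number as a block (adjusted p = 0.0675). MAGEC1 reached the filter's minimum count of 10 only in the wild type, so it was tested through the group where it is higher. MAGEB17 (16167481 to 16171464, plus strand) received 4, 14 and 12 counts against 16, 23 and 29. The groups did not overlap in CPM, and the gene missed the threshold (log2 fold change 1.15, SE 0.43, 95% interval 0.26 to 2.04, adjusted p = 0.0526). AC078993.1 overlaps it on the opposite strand over 416 exonic bases and had 36 counts in the wild type and 88 in the labelled knockout. Whether strand was used in counting is not given in the sources used here, so reads of the 2 genes cannot be told apart in the overlap.

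The CTAGE copies did not differ between the groups beyond their spread. CTAGE4 had 36, 53 and 31 counts against 46, 34 and 31, CTAGE15 had 13, 11 and 25 against 9, 23 and 9, and CTAGE8 had 13, 7 and 8 against 2, 13 and 4. The tested copies had log2 fold changes of -0.11 (CTAGE4, edgeR adjusted p = 0.827) and -0.30 (CTAGE15, adjusted p = 0.682). The sum of the 5 near-identical CTAGE genes gave -0.21 (SE 0.21, 95% interval -0.64 to 0.23, adjusted p = 0.532).

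Family sums, which depend least on how copies share reads, gave 4 called families of the 6 with enough reads, in a table where 24.3% of all rows were called. PAGE was lower (log2 fold change -3.53, SE 0.10, adjusted p = 2.11e-16) and so was MAGEC (-1.53, adjusted p = 0.044), each set by 1 gene. The MAGEC sum holds the counts of MAGEC1 alone. It therefore repeats that test, and it too passed the filter only through the wild type, where it is higher. MAGEB was higher (1.19, SE 0.42, adjusted p = 0.0415), set by MAGEB17, which held 98 of its 106 counts, was not called by itself and overlaps AC078993.1. CTAG was higher too (0.35 with the CTAGE genes, adjusted p = 0.0099, and 0.42 without them, adjusted p = 0.00412). It was set by CTAG2, which held 3029 of the 3041 counts without the CTAGE genes. The MAGEC call was lost in 9 of 17 alternatives and the MAGEB call in 8 of 17, both with the replicate block among them (adjusted p = 0.0672 and 0.0576), and the CTAG call without labelled knockout library 2 (adjusted p = 0.077). MAGEA and GAGE were not called.

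**Figure D5:**
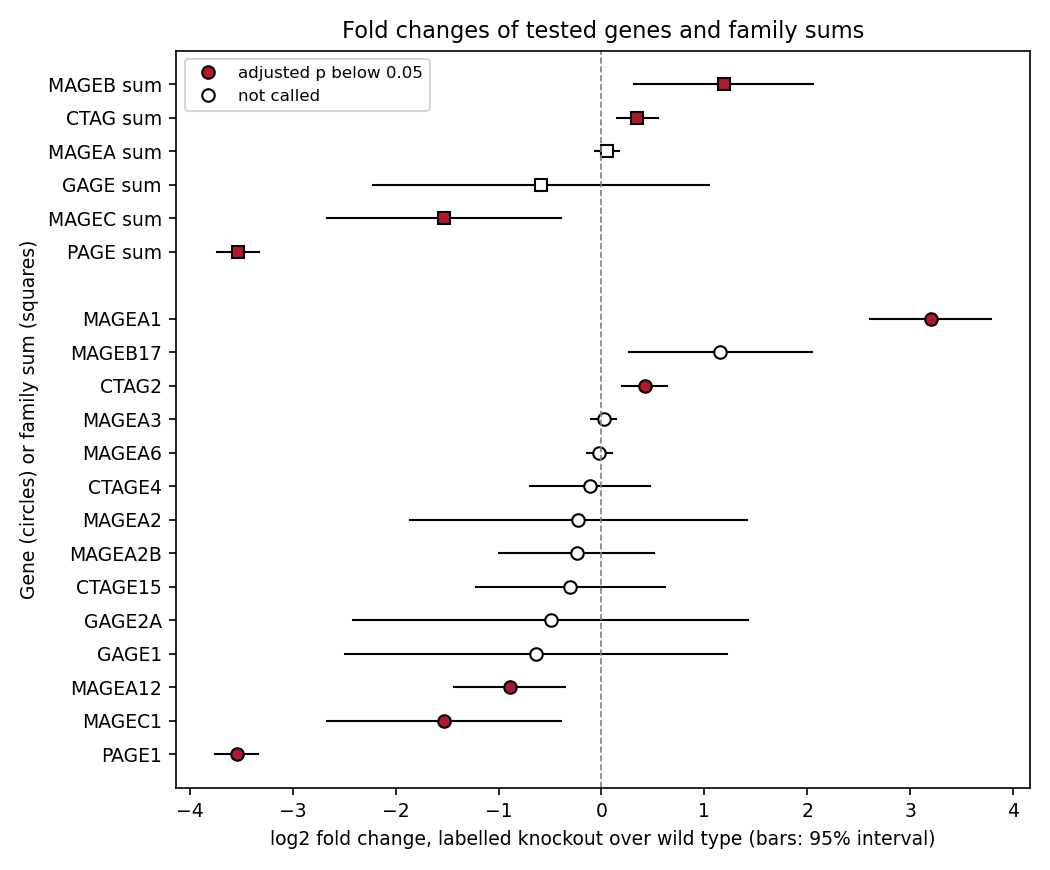
Log2 fold change, labelled knockout over wild type, of the 14 tested genes (circles) and the 6 tested family sums (squares), with 95% intervals and filled symbols for an adjusted p below 0.05. PAGE1 at -3.55 and MAGEA1 at 3.20 are the extremes, and the GAGE and MAGEA2 intervals are wide.

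The nearest protein-coding genes of the tested members were read beside them. CSAG3, a cancer-testis gene 36 bases from MAGEA2, was lower, with 260, 235 and 181 counts against 151, 157 and 171 (log2 fold change -0.50, edgeR adjusted p = 0.00577). CETN2, a centrin gene on the far side of MAGEA6, was also lower (-0.28, adjusted p = 0.0163). CSAG1 beside MAGEA12 and CSAG2 beside MAGEA2B were not called (-0.63 and 1.26, edgeR adjusted p = 0.252 and 0.368), nor was GABRQ before MAGEA3 (-0.36, adjusted p = 0.487). CSAG2 lies 36 bases from MAGEA2B, as CSAG3 does from MAGEA2, and had 6, 3 and 36 counts against 31, 62 and 20. Whether reads were divided between CSAG2 and CSAG3 bears on both values and was not tested. Around the other tested members, GAB3 beside CTAG2 had 0, 1 and 3 counts against 1, 0 and 0, and MAGEC3 and MAGEC2 on either side of MAGEC1 were silent. GRPR, a peptide receptor gene before MAGEB17, had 1, 1 and 1 counts against 4, 12 and 7 and was not tested, and CTPS2 on its other side was not called (-0.09, adjusted p = 0.467). ARHGEF35, 29 bases from CTAGE4, was not called (0.01, adjusted p = 0.96), nor was TCAF2 after CTAGE15 (0.67, adjusted p = 0.183), while OR2A14 and TAS2R41 on their other sides had 0 counts.

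Other genes with related roles were compared as lists, which are described by counts and medians only and read against the 24.3% of all tested genes that were called (12.0% higher, 12.4% lower) and their median of 0.00. Of 40 other cancer-testis genes, 21 were silent and 10 were tested, with 1 higher, 2 lower and a median log2 fold change of -0.15. PIWIL1, a germline Argonaute protein, was lower (41, 44 and 39 counts against 9, 21 and 17; log2 fold change -1.42, edgeR adjusted p = 0.00166), as was CSAG3. CABYR, a calcium-binding protein of the sperm tail, was higher (3, 9 and 4 against 15, 17 and 27; 1.85, adjusted p = 0.00635). CABYR reached the filter's minimum count of 10 only in the labelled knockout, so it was tested through the group where it is higher. The CSAG3 call was lost without wild-type library 1 or labelled knockout library 2, and the CABYR call without wild-type library 1 or labelled knockout library 3. Of 11 type II MAGE genes, which many tissues transcribe, 5 were silent and 5 were tested. Of the tested genes 3 were lower, and the median was -0.25. MAGED2 went from 35.2 ± 4.29 to 14.9 ± 2.09 CPM (log2 fold change -1.25, adjusted p = 1.3e-09), with smaller falls of MAGEE1 (-0.56) and MAGEF1 (-0.25, not called without labelled knockout library 1).

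Among 8 genes for ligases and other partners that MAGE proteins are known to bind or target, all tested, TRIM69 was higher (log2 fold change 0.30, edgeR adjusted p = 0.0353) and NSMCE1 (-0.28, adjusted p = 0.027) and PJA1 (-0.39, adjusted p = 0.00199) were lower. The median was -0.05. The TRIM69 call was lost in 7 of 16 alternatives, with no filter, DESeq2, the replicate block and without wild-type libraries 1 or 2 or labelled knockout libraries 1 or 3 (highest adjusted p 0.171). The NSMCE1 call was lost in 4, without wild-type libraries 1 or 3 or labelled knockout libraries 2 or 3 (highest adjusted p 0.136). TRIM28 was not called (-0.09, adjusted p = 0.286). Of 21 genes for DNA methylation and histone factors known to act on germline promoters, 18 were tested, with 2 higher, 3 lower and a median of -0.09. DNMT3B, a de novo DNA methyltransferase, went from 10.9 ± 1.28 to 5.46 ± 0.69 CPM (log2 fold change -1.0, adjusted p = 7.5e-06). DNMT1, the maintenance methyltransferase (-0.19), and HDAC1 (-0.21) were lower by small amounts, calls that were lost without labelled knockout library 1 and, for DNMT1, also with the replicate block (highest adjusted p 0.0537 for DNMT1 and 0.0566 for HDAC1). TET2, which oxidises methylcytosine (0.45), and ATF7IP, a cofactor of SETDB1 (0.43), were higher. Their part in the members' values was not tested.

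Markers of the line and of germ cells were read in the same libraries. All 12 colon epithelium markers were tested, with 1 called higher and 5 lower, beside 24.3% of all genes called, and a median log2 fold change of -0.15. MUC2, the main secreted mucin of goblet cells (-0.99), the transcription factor CDX1 (-0.67), the trefoil peptide TFF3 (-0.62), the secretory chaperone AGR2 (-0.56) and the cadherin CDH1 (-0.36) were lower, and the galectin LGALS4 was higher (0.22). TFF3 was not called in 5 of 16 alternatives, with limma voom and without wild-type libraries 1 or 3 or labelled knockout libraries 2 or 3 (highest adjusted p 0.173), nor LGALS4 without labelled knockout library 2 (0.0542). The markers' summed counts, most of them from KRT8, were 192046 to 205960 in the wild type and 183448 to 239744 in the labelled knockout. Their part in the members' values was not tested. Of 14 germ cell and pluripotent cell markers, 10 were at 0 in all libraries, among them DDX4, DAZL, NANOG, PRM1 and TNP1. The summed counts of the 14 were 109 to 149 in the wild type and 146 to 181 in the labelled knockout, nearly all from POU5F1, which has several closely similar pseudogenes and was not called (log2 fold change 0.35, edgeR adjusted p = 0.0865).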

How the data were processed

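Poly(A) RNA of 6 LS174T libraries was measured, and groups were taken from the labels. The authors deposited a table of raw read counts, 1 whole number per gene and library. The submitters' processing notes name HISAT2 2.0.5 and featureCounts 1.5.0-p3 and list the mouse build mm10. The identifiers in the deposited table are human, and all 86 members have the start and end of GENCODE release 29 (GRCh38). How strand and reads matching several genes were handled is not given in the sources used here. Rows without a gene name (232, with 0.13 to 0.25% of a library's counts) were left out.

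All named genes were fitted together with edgeR 4.0.16 (R 4.3.3, quasi-likelihood, two-sided, TMM, filterByExpr with a minimum count of 10, robust), labelled knockout over wild type, no covariate, with Benjamini-Hochberg adjustment over 15351 genes and a threshold of 0.05. Family sums replaced the members' rows in a second table. Named with every library's value were all members with at least 10 counts or past the filter. Members with 1 to 9 counts have their total, and silent ones are counted by family. Called genes of the companion lists and the neighbours of tested members are named too, and other companion or silent genes named as examples were picked after their values were seen. The members and lists were chosen with earlier results of these data known. Promoters came from RefSeq (GRCh38.p14), with entries for 71 members.

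Alternatives were other scalings, filters and tests (DESeq2 1.42.0, limma 3.58.1 voom), protein-coding genes alone, a block for the replicate number, and fits that each omit 1 library. Sums of near-identical copies and CTAGE apart from CTAG were added after seeing the data. The testing step was tested on simulated data. Python 3.11.15 made tables and plots.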

Additional observations from a re-analysis of the deposited data

Results flagged for a closer look

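Reads in rows outside the members were compared with the wild type. Among the matching pseudogene rows, CTAGE3P had 14 counts in all labelled knockout libraries (2, 4 and 8) and 3, 3 and 2 in the wild type. CT45A11P had 4 counts in all labelled knockout libraries (1, 3 and 0) and 0, 0 and 1 in the wild type, while the 9 CT45A genes themselves had 0. CTAGE12P had 4 counts, all in labelled knockout library 1, and 0 in each wild-type library. These rows were singled out because they had more than 3 counts in the labelled knockout and a mean CPM there above every wild-type library, and the differences, which rest on few reads, were not tested. CTAGE7P, the pseudogene row with the most reads, did not meet this (26, 13 and 12 counts in the wild type and 16, 28 and 13 in the labelled knockout), nor did CTAGE11P, with 1 count in all.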

How the results depend on the processing

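PAGE1, MAGEA1 and CTAG2 kept direction and call in all 17 alternatives tried for them, with log2 fold changes of -3.65 to -3.44, 2.92 to 3.93 and 0.29 to 0.54. Families called higher went from 2 to 1 with a minimum count of 5, with DESeq2 and with the replicate block, and ranged from 0 to 2 with a library left out. Families called lower went from 2 to 1 in those settings and with no filter, and ranged from 1 to 2. Members called lower, 3, ranged from 1 to 3 with a library left out. Ligase partners called higher went from 1 to 0 with no filter, with DESeq2 and with the replicate block, and ranged from 0 to 1, those called lower from 1 to 2. Other cancer-testis genes called higher went from 1 to 2 with no filter and ranged from 0 to 2, those called lower from 1 to 2. In the list of DNA methylation and histone factors, genes called lower ranged from 1 to 3. Over all tested genes, the replicate numbers did not pair the libraries (same-number correlations 0.02, -0.08 and -0.10), and the block called 2953 genes in place of 3735. Among the tested members and family sums it ended the calls of MAGEC1, MAGEB and MAGEC (adjusted p = 0.0672 for the MAGEC sum) and no other.

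Of the tested members, 7 that were not called changed sign. With total counts as scaling MAGEA6 was at 0.0037. With a library left out, log2 fold changes ranged from -0.036 to 0.054 for MAGEA3, -0.057 to 0.021 for MAGEA6, -0.96 to 0.025 for GAGE2A, -0.38 to 0.11 for CTAGE4, -0.79 to 0.59 for MAGEA2, -0.54 to 0.078 for MAGEA2B and -0.78 to 0.18 for CTAGE15. The cause was not tested. MAGEB17 was called with upper quartile scaling, limma voom, protein-coding genes alone and without wild-type library 2. Taking a mean of at least 1 CPM in either group as expressed gave 13 members in place of 14. CTAGE15 and MAGEC1 dropped out, and GAGE12G came in through wild-type library 1 alone. Counting all biotypes gave 15 expressed and 64 silent rows. Depth limits the members under about 20 counts, whose calls rest on few reads.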
